A study of Mus musculus with 21 samples.

Results

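The 10 genes described here, Insr, Irs1, Irs2, Igf1, Igf1r, Pik3r1, Akt2, Foxo1, Foxo3 and Tbc1d4, carry the insulin and insulin-like growth factor (IGF) signal from the cell surface to glucose uptake and gene transcription. They were taken by gene name from the 19096 genes of the deposited gene matrix, and each name was found there. The RNA came from the hearts of 21 male C57BL/6NJ mice, 1 library per heart, in mice modelling HFpEF, the form of heart failure in which the ejection fraction is preserved. The model joins diet-induced obesity with renin-driven hypertension. Mice of 8 to 10 weeks were put on chow or on a high-fat diet (HFD, D12492i, 60% of energy as fat) for 10 weeks, were injected retroorbitally with AAV-Renin or a control, and were sampled 6 weeks after the injection. The groups are chow_novirus (n = 4, the control), chow_Renin (n = 6, renin alone), HFD_novirus (n = 6, diet alone) and HFD_Renin (n = 5, the HFpEF model). AAV-Renin is an adeno-associated virus that delivers the gene for renin, the enzyme that starts angiotensin production. The sample labels call the control novirus, whereas the series text describes a null vector, and the promoter of the vector is not given in the sources used here.

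Insulin binds the receptor encoded by Insr, and IGF-1, the product of Igf1, binds the related receptor encoded by Igf1r. Both receptors phosphorylate the adaptors IRS1 and IRS2, which recruit phosphoinositide 3-kinase through its regulatory subunit (Pik3r1) and so activate the kinase AKT2. AKT2 phosphorylates TBC1D4, which frees the glucose transporter GLUT4 (Slc2a4) to reach the surface of muscle cells, and it keeps the transcription factors FOXO1 and FOXO3 out of the nucleus. In the healthy heart this pathway governs glucose uptake and cell growth, and it is known for its loss of response in obesity. Only RNA was measured here, so the phosphorylation through which the pathway signals is outside these data.

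Library totals ranged from 18.7 to 29.3 M (mega) estimated reads, and each of the 4 chow_novirus libraries (at most 21.4 M) was below every other library (at least 22.8 M). All 10 genes passed the filter on low counts. The most sparsely counted were Irs1, with 52 to 442 reads per library, and Igf1, with 123 to 373, and the most deeply counted was Akt2, with 3245 to 5033. The markers matched the heart label: the 8 cardiomyocyte genes had reads in all groups, with a summed level of 50589 to 70556 CPM (counts scaled to a common library size), and the 4 pancreatic islet genes, insulin included, summed to at most 0.135 CPM. The endogenous renin gene Ren1 had reads in 4 of 21 libraries and at most 5 reads in any, so heart RNA could not check the renin label. A list of 12 central neuron and glia genes summed to 214 to 355 CPM in chow_Renin and to at most 115 CPM elsewhere. The part of this nervous tissue signal in the chow_Renin results below was not tested beyond a fit that takes it as a covariate. The groups took up 90.4% of the variance of the score made from that list, so nervous signal and group cannot be told apart well. A list of 6 atrial genes (Myl7, Myl4, Sln, Nppa, Bmp10 and Dkk3) also differed between libraries. Its median summed level was 707 CPM in HFD_Renin (141 to 1015), 85.1 in HFD_novirus (41.9 to 886), 420 in chow_Renin (68.2 to 963) and 234 in chow_novirus (156 to 1228). The 6 fibroblast genes had medians of 769, 536, 462 and 502 CPM in the same order.

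In the HFpEF model, Akt2 and Irs2 were lower than in control hearts, and these were the 2 of 10 members called; 8.29% of all 15216 genes tested were called in the same comparison. A gene was called at a Benjamini-Hochberg adjusted p under 0.05 in edgeR's quasi-likelihood test, fitted over all 21 libraries. Akt2 fell to 0.807 of the control level and Irs2 to 0.476. Across the members the median log2 fold change was -0.04, against 0.01 over all genes. Whole tissue was sequenced, so fewer cells of a type and less RNA per cell cannot be told apart in any result here.

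Renin on the high-fat diet was associated with lower Akt2 and higher Igf1r: in HFD_Renin against HFD_novirus, 2 of 10 members were called, where 11.1% of all genes were. The summed atrial level moved with this comparison: it was 587 to 1015 CPM in 4 of 5 HFD_Renin hearts and 41.9 to 154 CPM in 5 of 6 HFD_novirus hearts. The exceptions were HFD_Renin replicate 4 at 141 CPM and HFD_novirus replicate 3 at 886 CPM, and the part of atrial or fibroblast RNA in the result was not tested. Gene by gene, 1 of 5 tested atrial genes was called higher, with a median log2 fold change of -0.06, and 0 of 6 fibroblast genes were called, with a median of 0.32. Most genes of the atrial list thus did not share the rise of its sum, and which of them carried it is not shown. Of 8 cardiomyocyte genes 4 were called lower and 1 higher, and their summed level was 50589 to 56662 CPM in HFD_Renin, below all HFD_novirus hearts (56684 to 65858 CPM); its part in the result was not tested. The member median log2 fold change was -0.11, against -0.01 over all genes. None of the 10 members was called in the other 4 comparisons. Renin on chow (chow_Renin against chow_novirus) called 13.5% of all genes and 0 members, with 1 member at an unadjusted p under 0.05 in edgeR. Diet alone (HFD_novirus against chow_novirus) called 0.0657% of all genes and 0 members, with 2 at an unadjusted p under 0.05. Diet under renin (HFD_Renin against chow_Renin) called 22.6% of all genes and 0 members, with 0 at an unadjusted p under 0.05. The interaction, meaning the renin difference in HFD hearts less the renin difference in chow hearts, called 10.4% of all genes and 0 members, with 2 at an unadjusted p under 0.05. Over all 15216 genes, 3821, 1668, 5133 and 3500 had an unadjusted edgeR p under 0.05 in these 4 comparisons, in the same order. DESeq2 also called 0 members in these 4 comparisons, whereas limma on log2(TPM + 1) called Akt2 in HFD_Renin against chow_Renin. HFD_Renin is set against both chow_novirus and HFD_novirus, so these comparisons share its 5 libraries.

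**Figure D1:**
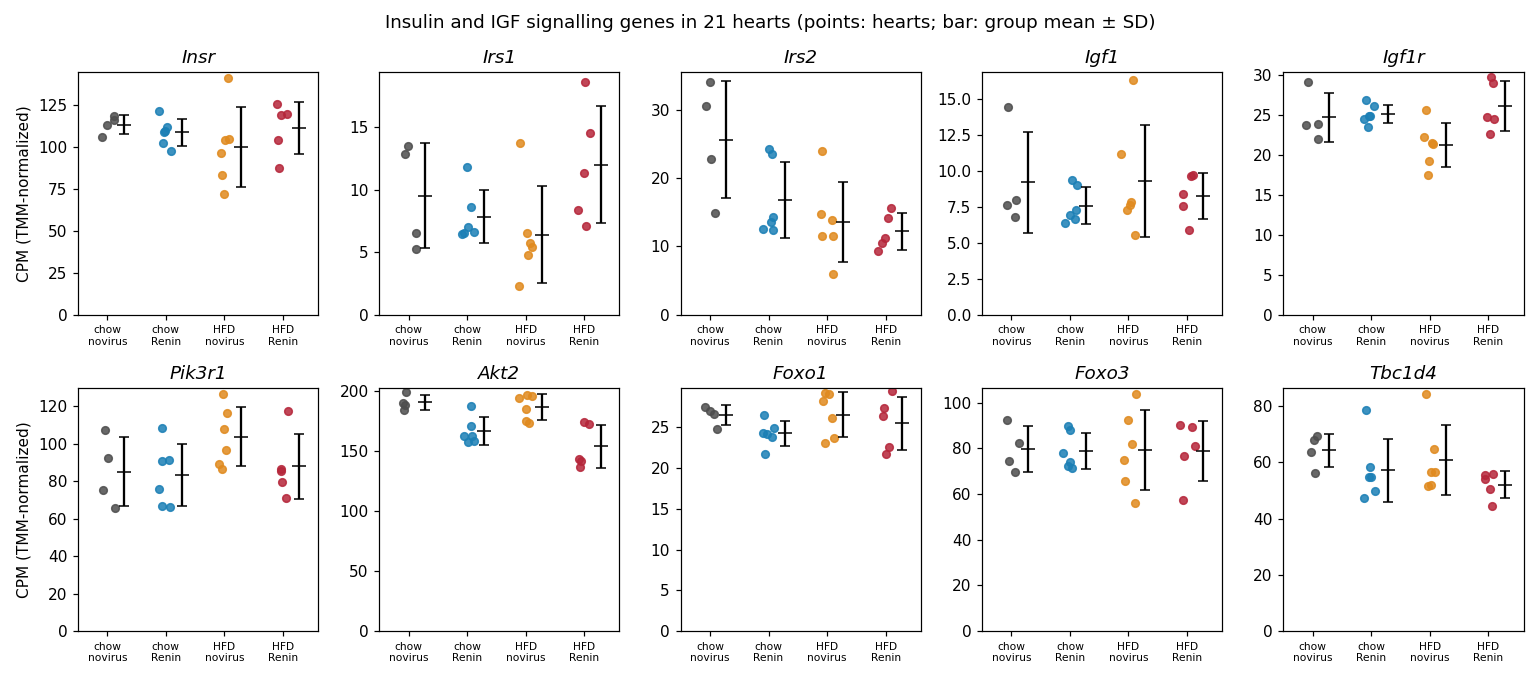
Level of each of the 10 genes in 21 hearts, in CPM normalized by the trimmed mean of M values (TMM), with linear axes from 0. Points are hearts and bars are the group mean ± SD (n = 4, 6, 6 and 5 from left to right). The 5 HFD_Renin hearts lie below all chow_novirus hearts for Akt2 and Tbc1d4, and 4 of 5 do for Irs2. The share of all genes that separate these hearts in the same way was not counted.

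**Figure D2:**
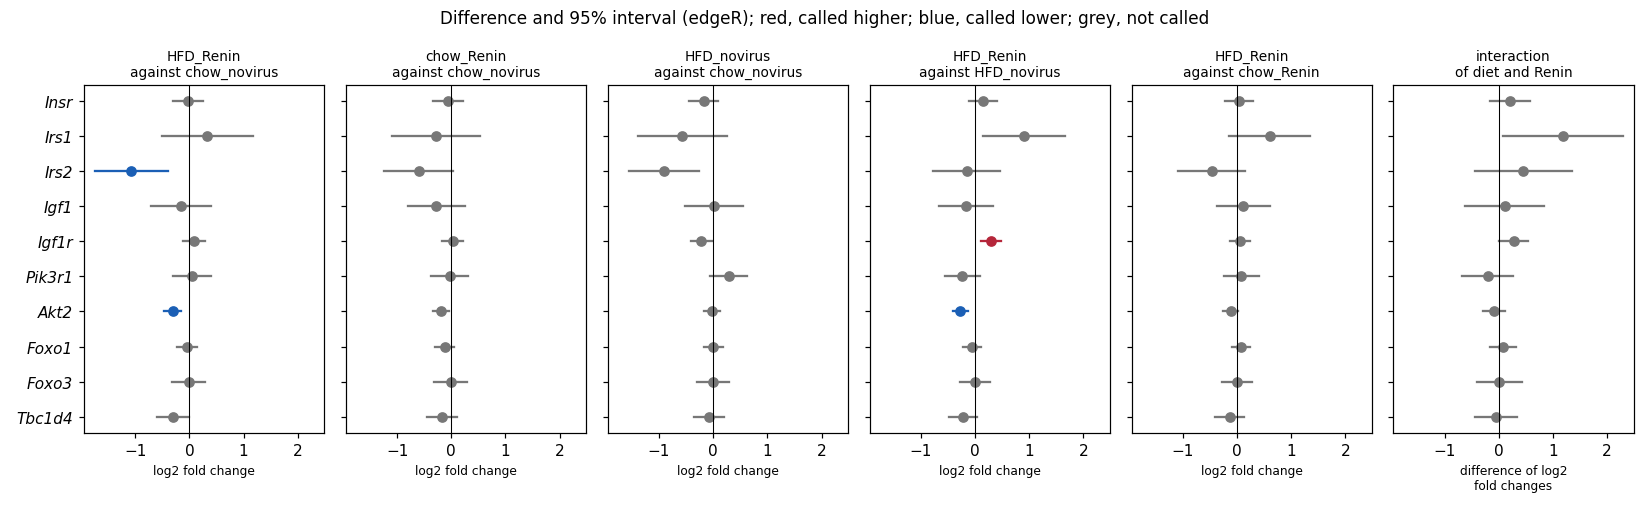
Log2 fold change of each gene in the 6 comparisons, with its 95% interval from edgeR. Colour marks the calls: Irs2 and Akt2 lower in HFD_Renin against chow_novirus, Akt2 lower and Igf1r higher in HFD_Renin against HFD_novirus. The intervals of Irs1 and Irs2 are the widest in each panel.

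The ligand gene Igf1, whose product circulates from liver and is also made locally in tissues, was not called in any comparison. Its level was 9.23 ± 3.50 CPM (SD, n = 4) in chow_novirus, 7.60 ± 1.27 (n = 6) in chow_Renin, 9.30 ± 3.91 (n = 6) in HFD_novirus and 8.25 ± 1.60 (n = 5) in HFD_Renin. The HFD_Renin against chow_novirus log2 fold change was -0.16, with a 95% interval from -0.71 to 0.39. That interval allows changes in either direction. The estimated share of its main transcript, 7052 bases long, ranged from 38.7% to 100% of the gene's TPM (a transcript share corrected for length) between libraries, so the TPM of Igf1 depends on how few reads were split between transcripts of unlike length.

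The receptor gene Igf1r, at chromosome 7, 67952827 to 68233668, on the plus strand (GRCm38), was higher under renin on the high-fat diet. The 5 HFD_Renin hearts had 29.8, 24.8, 24.5, 22.7 and 29.1 CPM, whereas the 6 HFD_novirus hearts had a lowest level of 17.5, a median of 21.4 and a highest of 25.7 CPM. Replicates 1 and 5 of HFD_Renin were above every HFD_novirus heart and the other 3 overlapped them. On the log2 scale the difference was 0.30 ± 0.09 (SE; edgeR adjusted p = 0.0329). The chow hearts were at 24.8 ± 3.11 CPM (SD, n = 4) in chow_novirus and 25.2 ± 1.19 (n = 6) in chow_Renin. For diet alone the Igf1r log2 fold change was -0.22 (95% interval -0.42 to -0.02, edgeR adjusted p = 0.411), and for the interaction it was 0.28 (interval 0.0050 to 0.55, edgeR adjusted p = 0.208).

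The Igf1r call did not hold in 10 of 21 alternative fits. It was lost without HFD_novirus replicate 2 (edgeR adjusted p = 0.0700) or 5 (0.0760), and without HFD_Renin replicate 1 (0.130), 2 (0.0509) or 5 (0.108). It was also lost with only the 2 groups in the fit (0.104), with limma on log2(TPM + 1) (0.0688), and with the clock (0.602) or the central neuron and glia score (0.0616) as a covariate. The same held when the share of reads on transcripts of 5 kb or more was a covariate, with a log2 fold change of 0.15 (edgeR adjusted p = 0.519). That share was lowest in HFD_novirus, at 11.6% to 13.4% of reads, against 12.8% to 14.9% in HFD_Renin, and the main Igf1r transcript is 11409 bases long.

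The insulin receptor gene Insr was not called. Its mean level lay between 100 and 113 CPM in the 4 groups, and the HFD_Renin hearts (125, 119, 104, 87.2 and 120 CPM) spanned the 4 chow_novirus hearts (113, 116, 106 and 118 CPM). The spread was unequal: the SD was 5.61 CPM in chow_novirus and 23.8 CPM in HFD_novirus. The log2 fold change of HFD_Renin against chow_novirus was -0.03, with a 95% interval from -0.31 to 0.25.

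The adaptor genes Irs1 and Irs2 are shown with the 250 bases before their start sites, because they are the members with the largest fold changes and the only 2 of 9 matched members whose window held any of 4 motifs searched. The sequences are from RefSeq for GRCm38.p6, at chr1:82291440-82291689 for Irs1 and chr8:11008930-11009179 for Irs2, both on the minus strand and printed 5′ to 3′ in the direction of transcription. Capitals mark matches.
Irs1: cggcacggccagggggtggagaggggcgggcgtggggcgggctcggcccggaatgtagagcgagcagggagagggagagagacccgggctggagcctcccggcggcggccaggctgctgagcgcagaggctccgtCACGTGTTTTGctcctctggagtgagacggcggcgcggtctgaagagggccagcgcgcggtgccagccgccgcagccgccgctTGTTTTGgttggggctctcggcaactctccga
Irs2: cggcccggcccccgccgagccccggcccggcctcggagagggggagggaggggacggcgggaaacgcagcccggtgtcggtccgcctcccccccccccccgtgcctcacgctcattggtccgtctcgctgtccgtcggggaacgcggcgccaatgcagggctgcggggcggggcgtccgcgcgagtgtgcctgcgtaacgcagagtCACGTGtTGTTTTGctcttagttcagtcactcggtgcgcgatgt
Each holds the E-box CACGTG, the site bound by CLOCK and BMAL1 and by other basic helix-loop-helix factors, next to or overlapping TGTTTTG, the core of the insulin response element known from FOXO target genes. In Irs1 the E-box begins 115 bases upstream of the start and overlaps a TGTTTTG beginning at 111, and a further TGTTTTG begins at 32. In Irs2 the E-box begins at 44 and TGTTTTG at 37. These distances run from the RefSeq start of each gene, which on the minus strand lies upstream of the GENCODE start, by more for Irs2 than for Irs1.
Searched on both strands of 32851 windows of the same length, CACGTG was in 6.02%, TGTTTTG in 5.56%, the forkhead element GTAAACA in 3.17% and the cyclic AMP response element TGACGTCA in 1.55%. The 11 other windows of members, several for Akt2 and Pik3r1, held none of the 4. Insr was not in the promoter table. TGTTTTG was added to the search after the windows had been seen, and a match describes letters only.

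Irs2, a gene at chromosome 8, 10984681 to 11008458, on the minus strand (GRCm38), was lower in the HFpEF model than in control hearts. The 4 chow_novirus hearts had 22.8, 30.6, 14.8 and 34.0 CPM and the 5 HFD_Renin hearts 15.7, 11.3, 10.5, 9.28 and 14.1 CPM. Control replicate 3 was the low one of its group, below 1 HFD_Renin heart, and the other 3 control hearts were above all 5. This replicate also stood apart in marker genes, at 1228 CPM of atrial genes against 156 to 269 in the other controls and at 865 against 482 to 507 CPM of fibroblast genes. Irs2 differed by -1.07 ± 0.32 (SE) on the log2 scale, with a 95% interval from -1.75 to -0.40 (edgeR adjusted p = 0.0465).

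The other groups had means between these. The 6 chow_Renin hearts had a lowest Irs2 level of 12.4, a median of 13.9 and a highest of 24.2 CPM, and the 6 HFD_novirus hearts 6.01, 12.7 and 23.9 CPM. Most hearts of both groups were below the 3 high control hearts, and replicates 1 and 2 of chow_Renin and replicate 1 of HFD_novirus reached their range. Against chow_novirus the log2 fold change was -0.61 in chow_Renin (edgeR adjusted p = 0.228) and -0.91 in HFD_novirus (edgeR adjusted p = 0.281), and neither was called. HFD_Renin differed from HFD_novirus by -0.16 (interval -0.78 to 0.46) and from chow_Renin by -0.46 (interval -1.08 to 0.15), so a difference of Irs2 between these groups was not shown.

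The Irs2 call rests close to the threshold. It held in 6 of 19 alternative fits, whose log2 fold changes ran from -1.44 to -0.70 with edgeR, DESeq2 or limma adjusted p from 0.0174 to 0.631. It was lost without chow_novirus replicate 1, 2 or 4 (edgeR adjusted p = 0.0754, 0.120 and 0.158) and without any single HFD_Renin library (0.0622 to 0.0937), and it held only without chow_novirus replicate 3 among those that leave out a library (0.0231). It was also lost with no filter on low counts (0.0791), with thinned libraries (0.0539), with limma on log2(TPM + 1) (adjusted p = 0.0552), and with the clock score (log2 -1.44, edgeR adjusted p = 0.631) or the central neuron and glia score (0.0848) as a covariate.

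Irs1, the other main adaptor of insulin signalling in muscle, was the most variable member, with a median coefficient of variation of 41.6% within groups against 6.27% for Akt2. The 5 HFD_Renin hearts had 18.6, 11.3, 8.40, 7.12 and 14.5 CPM, the 4 chow_novirus hearts 12.9, 13.5, 5.30 and 6.55 CPM, and the 6 HFD_novirus hearts a lowest of 2.28, a median of 5.59 and a highest of 13.7 CPM. All 5 HFD_Renin hearts were above the HFD_novirus hearts other than replicate 1. Their log2 difference was 0.90 (SE 0.36, 95% interval 0.14 to 1.66, edgeR adjusted p = 0.115), and the interaction was 1.18 (interval 0.07 to 2.28, edgeR adjusted p = 0.186).

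The Irs1 result depended on HFD_novirus replicate 1, at 13.7 CPM. That library also had the highest Insr (141 CPM), Irs2 (23.9), Igf1r (25.7), Akt2 (196), Foxo1 (29.2), Foxo3 (104) and Tbc1d4 (84.4) of its group, though not the highest Igf1 or Pik3r1. Leaving out the highest heart of the lower group widens a gap in any case. Without replicate 1 the Irs1 log2 fold change was 1.27 (edgeR adjusted p = 0.0152) and the interaction 1.54 (edgeR adjusted p = 0.0329), both past the threshold. With the read share of long transcripts as a covariate and all libraries kept, the HFD_Renin against HFD_novirus value was 0.16 (edgeR adjusted p = 0.879). The same covariate brought Irs1 past the threshold in HFD_Renin against chow_Renin, at 0.70 (edgeR adjusted p = 0.0435), where it was 0.61 (0.250) without the covariate. Irs1 followed that share more closely than any other member (r = 0.72 over 21 libraries, group means subtracted), and its transcript is 9144 bases long.

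Pik3r1, which encodes the p85 alpha regulatory subunit of phosphoinositide 3-kinase, was not called. Its highest mean was in HFD_novirus, at 104 ± 15.9 CPM (SD, n = 6), and the other means were 85.1 ± 18.3 (n = 4) in chow_novirus, 83.2 ± 16.6 (n = 6) in chow_Renin and 88.0 ± 17.4 (n = 5) in HFD_Renin. Diet alone gave a log2 fold change of 0.29 (95% interval -0.06 to 0.63, edgeR adjusted p = 0.553), with 3 of 6 hearts above all control hearts.

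Akt2, the AKT isoform that insulin uses for glucose uptake, gave the calls that held in most alternative fits. The gene lies at chromosome 7, 27591552 to 27640826, on the plus strand (GRCm38). The 4 chow_novirus hearts had 190, 184, 188 and 199 CPM and the 5 HFD_Renin hearts 137, 143, 174, 173 and 142 CPM. The groups did not overlap, although the share of all genes without overlap was not counted. Their log2 difference was -0.31 (SE 0.07, 95% interval -0.46 to -0.16, edgeR adjusted p = 0.0120). On the high-fat diet the 6 HFD_novirus hearts had a lowest Akt2 level of 173, a median of 189 and a highest of 196 CPM, so that 4 of 5 HFD_Renin hearts were below all of them. That log2 difference was -0.28 (SE 0.07, 95% interval -0.42 to -0.14, edgeR adjusted p = 0.0103).

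Renin on chow went the same way without a call. The 6 chow_Renin hearts had a lowest Akt2 level of 157, a median of 162 and a highest of 188 CPM, and 5 of 6 were below all control hearts. Their log2 difference was -0.19 (95% interval -0.34 to -0.05, edgeR adjusted p = 0.0744). Without chow_Renin replicate 6, the highest of its group, it was -0.23 (edgeR adjusted p = 0.0295). In chow_Renin the summed cardiomyocyte level was 54725 to 56842 CPM, below all control hearts, with 2 of 8 genes called lower, and the day-phase clock genes described below summed to 613 to 699 CPM against 736 to 851 in the controls. Their part in the chow_Renin results, those of Akt2 and Slc2a4 included, was not tested beyond the clock covariate. Diet alone gave -0.03 (interval -0.18 to 0.12). The interaction was -0.08 (interval -0.29 to 0.12), so the renin difference of Akt2 was not shown to differ between the diets.

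Within HFD_Renin, the 3 hearts with the lowest Akt2 (replicates 1, 2 and 5) also had the lowest summed level of 9 day-phase clock genes (Dbp, Nr1d1, Per2 and others), at 545, 570 and 571 CPM, against 688 and 665 CPM in replicates 3 and 4. The control hearts were at 736 to 851 CPM. With a clock score as a covariate the Akt2 log2 fold change against chow_novirus was -0.14 (edgeR adjusted p = 0.820), and 0 of 15216 genes were called in that comparison. The groups took up 60.1% of the variance of the clock score, so clock and group cannot be told apart well in this design. The summed level of 8 cardiomyocyte genes was lower too, at 50589 to 56662 CPM in HFD_Renin and 58589 to 70556 in chow_novirus, and its part in the result was not tested. The Akt2 call against chow_novirus was past the threshold in 17 of 19 alternative fits; besides the clock covariate it was lost without chow_novirus replicate 4 (edgeR adjusted p = 0.0515). The call against HFD_novirus was past it in 17 of 21, and was lost with the clock score (edgeR adjusted p = 0.539) or the long-transcript share (0.190) as a covariate, with only the 2 groups in the fit (0.0630) and with limma on log2(TPM + 1) (adjusted p = 0.0732).

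The factors downstream showed no called change. Foxo1, whose product drives genes of atrophy, gluconeogenesis and stress resistance, stayed between 21.8 and 29.4 CPM in all 21 hearts. Its log2 fold change in HFD_Renin against chow_novirus was -0.05, with a 95% interval from -0.24 to 0.13. Foxo3, a related factor linked to autophagy in muscle, had group means from 79.0 to 79.8 CPM. Its HFD_Renin against chow_novirus log2 fold change was -0.02 (interval -0.33 to 0.29).

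Tbc1d4, whose product AS160 holds GLUT4 inside the cell until AKT2 phosphorylates it, was at 67.9, 69.2, 56.1 and 63.8 CPM in chow_novirus and at 44.5, 50.5, 55.3, 56.0 and 53.9 CPM in HFD_Renin. The groups did not overlap, although the highest HFD_Renin heart and the lowest control heart nearly met. On the log2 scale they differed by -0.30 (SE 0.14, 95% interval -0.59 to -0.01, edgeR adjusted p = 0.191), which was not called.

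The Tbc1d4 count is largely that of 1 noncoding transcript. Tbc1d4-208, annotated as a retained intron, took 81.5% of the gene's TPM on average over 21 libraries (59.8% to 93.0%), whereas the full-length coding Tbc1d4-209 took 7.99%. The 8 exons of Tbc1d4-208 lie at 101442368 to 101463223 on chromosome 14 of GRCm38, on the minus strand, and 3684 of its 3823 bases are also exonic in Tbc1d4-209. Estimated reads were therefore split between transcripts with much shared sequence. Counted over its protein-coding transcripts alone, Tbc1d4 was at 15.2 ± 5.26 CPM (SD, n = 4) in chow_novirus, 12.1 ± 5.17 (n = 6) in chow_Renin, 10.99 ± 7.14 (n = 6) in HFD_novirus and 14.7 ± 3.80 (n = 5) in HFD_Renin. On that count the sign turned for HFD_Renin against HFD_novirus, from -0.23 to 0.42 (edgeR adjusted p = 0.490), and no comparison was called. A direction for Tbc1d4 is thus not given.

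**Figure D3:**
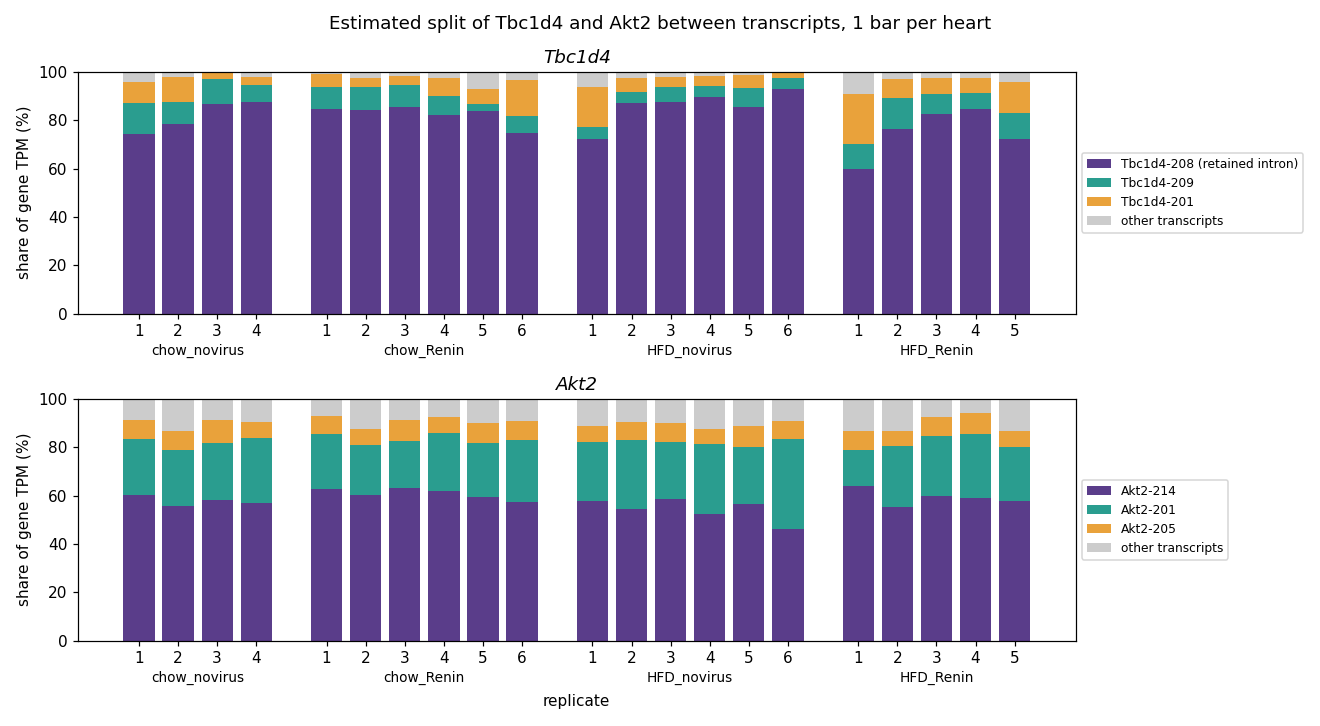
Share of each gene's TPM that the quantifier assigned to its main transcripts, in percent, with 1 stacked bar per heart, for Tbc1d4 above and Akt2 below. Tbc1d4-208, a retained intron, holds 59.8% to 93.0% of Tbc1d4, whereas Akt2 is split between coding transcripts, the first at 58.0% and the next at 24.4% on average.

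Per transcript length, Akt2 was the most abundant of the 10 genes, at 53.7 ± 4.79 TPM (SD, n = 21). It was followed by Tbc1d4 at 12.2, Pik3r1 at 10.7, Foxo3 at 9.59 and Insr at 9.45 TPM, whose ranges overlapped from each to the next. A gap separated these from Foxo1 at 2.37, Irs2 at 2.12, Igf1r at 1.81, Igf1 at 1.44 and Irs1 at 0.771 TPM, again with overlapping neighbours. In the control hearts Irs2 (3.26 ± 1.05 TPM, n = 4) was above Foxo1 (2.44 ± 0.174) on average. In HFD_Renin it was below, at 1.58 ± 0.414 TPM (n = 5) against 2.36 ± 0.308, with overlapping ranges in both groups. Irs2 exceeded Irs1 in mean TPM in each of the 4 groups, by 3.26 against 0.828 TPM in chow_novirus and by 1.58 against 1.07 TPM in HFD_Renin.

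Within groups, 4 members varied together from heart to heart. After subtraction of the group means from log2 CPM, Irs1 and Foxo3 had r = 0.84 over 21 libraries, Insr and Irs1 0.80, Insr and Foxo3 0.77, Irs1 and Irs2 0.72, Insr and Irs2 0.72, and Irs2 and Foxo3 0.65. Akt2 and Tbc1d4 had r = 0.55, and Insr and Igf1 -0.61. Of 45 pairs of members 7 had r above 0.5 and 19 had r below 0, with a median of 0.16. The median was 0.00 over pairs from an evenly spaced sample of the genes with a mean of at least 5 CPM. Pairs above 0.5 and below 0 were not counted in that sample. These r values describe the same 21 libraries, and all genes of a library share its depth and its RNA, whose quality is not given here.

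Several members followed the share of reads on transcripts of 5 kb or more, which ran from 11.6% to 14.9% between libraries. With group means subtracted, r with that share was 0.72 for Irs1, 0.64 for Foxo3, 0.54 for Igf1r, 0.52 for Pik3r1, 0.45 for Irs2 and 0.40 for Insr, and -0.32 for Akt2. The main transcripts of the first 6 are 6323 to 11409 bases long and those of Akt2 2865 and 2923 bases. Foxo1, whose transcript has 8665 bases, had r = 0.02, and Igf1, with a main transcript of 7052 bases, 0.13. The part of this share in the joint variation was not tested.

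**Figure D4:**
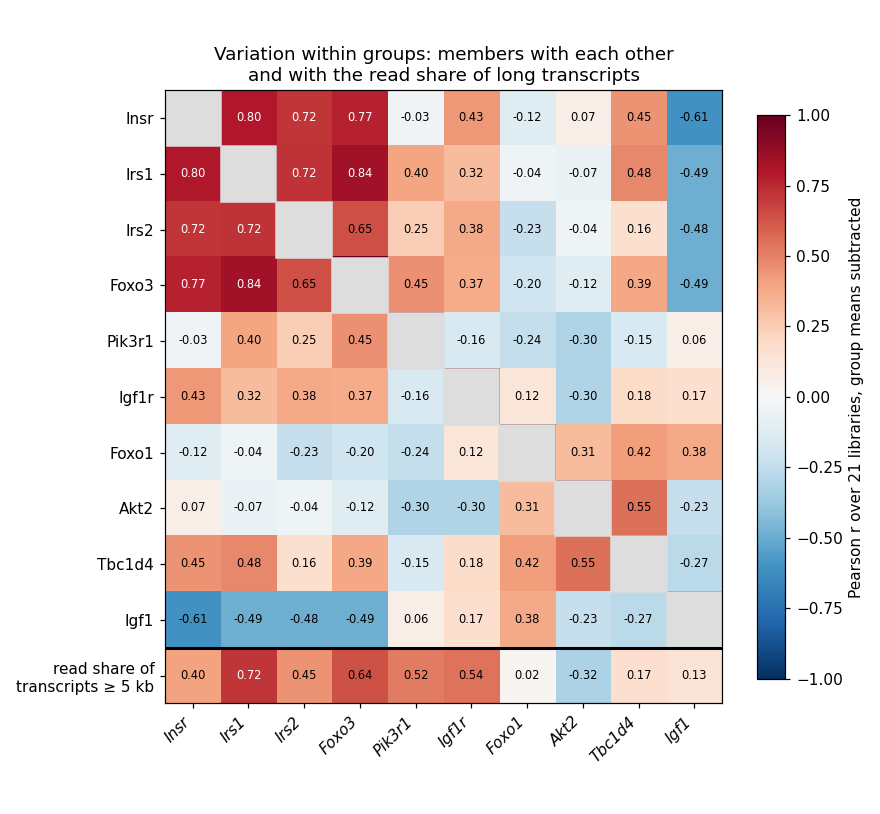
Pearson r between members over 21 libraries after group means were subtracted from log2 CPM, with the read share of transcripts of at least 5 kb in the bottom row. Insr, Irs1, Irs2 and Foxo3 form the block of high values (0.65 to 0.84), Igf1 has negative r with each of them, and Irs1 and Foxo3 have the highest r with the long-transcript share.

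For the called members, the genes most like them over the 21 libraries were sought among 10061 genes with a mean of at least 5 CPM. For Irs2 they were Fosl2 (r = 0.89), which encodes a subunit of the transcription factor AP-1, Sik1 (0.85), a salt-inducible kinase, and Washc5 (0.84). For Akt2 they were Tmem94 (0.86), Pink1 (0.84), the kinase that marks damaged mitochondria, and Zhx2 (0.83). For Igf1r they were Tmem39a (0.78), Ccdc186 (0.76) and Anapc7 (0.74).

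The rest of the pathway was covered by 7 lists with 98 genes, of which 95 were tested (Insrr, Pappa2 and Igfbp1 had too few reads). In HFD_Renin against chow_novirus 7 of 95 were called higher and 4 lower, or 11.6% against 8.29% of all genes. The glucose transport list had 3 of 9 genes called lower and 0 higher, with a median log2 fold change of -0.18. In the same comparison 4 of 8 cardiomyocyte genes were called lower (median -0.20) and 0 of 6 fibroblast genes were called (median 0.48). Their part in the results of the glucose transport list, Slc2a4 included, was not tested. The list of other phosphoinositide 3-kinase, PDK1 and AKT genes had 1 of 10 called higher and 0 lower, the adaptors and receptor regulators 2 of 15 higher, the FoxO factors and targets 2 of 20 higher, the phosphatases and brakes 1 of 11 higher, the mTOR branch 1 of 18 higher, and the receptors and ligands 1 of 12 lower.

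Slc2a4, which encodes the insulin-responsive transporter GLUT4, had 364 ± 33.4 CPM (SD, n = 4) in chow_novirus and 237 ± 19.8 (n = 5) in HFD_Renin. This was a log2 difference of -0.62 ± 0.08 (SE; edgeR adjusted p = 0.000194), with all 5 hearts below all control hearts. Slc2a12, a further glucose transporter gene, fell from 9.15 ± 1.03 to 5.07 ± 0.840 CPM (log2 -0.85, edgeR adjusted p = 0.00232). Pik3r3, which encodes another regulatory subunit beside that of Pik3r1, rose by 0.71 (edgeR adjusted p = 0.00184), and Deptor, an mTOR inhibitor gene, rose by 0.40 (edgeR adjusted p = 0.00474). Bnip3, a mitophagy gene and FoxO target, rose by 0.57 (edgeR adjusted p = 0.00260). Htra1, whose product is a protease that cleaves IGF-binding proteins, fell by 0.52 on the log2 scale (edgeR adjusted p = 0.000474). With the clock score as a covariate, where 0 of all genes were called, none of these 6 was. Their log2 values in that fit were -0.50 for Slc2a4, -0.43 for Slc2a12, 0.30 for Pik3r3, 0.38 for Deptor, 0.41 for Bnip3 and -0.34 for Htra1. Deptor was also not called with limma on log2(TPM + 1) (adjusted p = 0.0630).

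In HFD_Renin against HFD_novirus 8 of 95 pathway genes were called higher and 5 lower, or 13.7% against 11.1% of all genes. By list, these were 4 of 12 receptors and ligands, 3 of 10 kinase genes, 3 of 15 adaptors and receptor regulators, and 1 gene each of glucose transport, the mTOR branch and the FoxO list. Pik3r3 rose by 0.62 (edgeR adjusted p = 0.00190) and Bnip3 by 0.39 (0.0114), and Htra1 fell by 0.32 on the log2 scale (0.00645). Enpp1, which encodes a membrane enzyme that inhibits the insulin receptor, had 8.73 ± 1.73 CPM (SD, n = 5) in HFD_Renin and 4.80 ± 1.17 (n = 6) in HFD_novirus, a log2 fold change of 0.86 (edgeR adjusted p = 0.00289). Ptpn11, which encodes the phosphatase SHP2 that binds IRS adaptors, rose by 0.47 (edgeR adjusted p = 0.00712), and Mtor, the kinase gene that gives its name to the mTOR branch, rose by 0.41 (edgeR adjusted p = 0.0115). None of these 6 was called with the clock score as a covariate, which left 8 calls over all genes, and their log2 values there ran from -0.20 (Htra1) to 0.58 (Enpp1). None was called with the long-transcript share as a covariate either, which left 95 calls, with log2 values of 0.42 for Pik3r3, 0.35 for Bnip3, -0.29 for Htra1, 0.69 for Enpp1, 0.24 for Ptpn11 and 0.32 for Mtor. Bnip3 (edgeR adjusted p = 0.0642) and Mtor (0.0701) also lost their calls with only the 2 groups in the fit, and Htra1 with limma (adjusted p = 0.0992).

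In chow_Renin against chow_novirus 3 of 95 pathway genes were called higher and 7 lower, or 10.5% against 13.5% of all genes, of which 1537 were higher and 511 lower. By list, glucose transport had the highest share, at 1 of 9 higher and 3 of 9 lower. Slc2a4 fell by 0.40 on the log2 scale (edgeR adjusted p = 0.000828) to 276 ± 16.1 CPM (SD, n = 6), and Slc2a1, which encodes the basal transporter GLUT1, rose by 0.44 (edgeR adjusted p = 0.00359). Socs3, which encodes a cytokine-induced inhibitor of IRS signalling, rose from 6.45 ± 0.637 to 10.4 ± 0.948 CPM (log2 0.69, edgeR adjusted p = 0.000903). Htra1 (-0.35, edgeR adjusted p = 0.00149), Inppl1 (-0.26, adjusted p = 0.00384), the lipid phosphatase SHIP2 gene, and Sod2 (-0.25, adjusted p = 0.00611), the mitochondrial superoxide dismutase gene, fell. The Sod2 call was lost without chow_novirus replicate 1 or 2. None of these 6 was called with the central neuron and glia score as a covariate, which left 23 calls over all genes. The log2 values there were larger for Slc2a4 (-0.75), Htra1 (-0.67) and Socs3 (0.90) and smaller for Slc2a1 (0.28), Inppl1 (-0.15) and Sod2 (-0.18). The clock score ended the calls of Htra1, Slc2a1 and Sod2, and limma those of Htra1, Inppl1 and Sod2. Diet alone called 0 of 95 pathway genes.

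In HFD_Renin against chow_Renin 12 of 95 pathway genes were called higher and 5 lower, or 17.9% against 22.6% of all genes, of which 1491 were higher and 1949 lower. Glucose transport had 3 of 9 genes called lower, and the adaptors and receptor regulators 4 of 15 higher and 1 lower. Socs3 fell by 0.82 on the log2 scale (edgeR adjusted p = 3.99e-05) and Slc2a1 by 0.69 (5.96e-06), whereas Ptpn11 rose by 0.49 (0.00142), Igfbp7, an IGF-binding protein gene, by 0.60 (0.00455), and Deptor by 0.38 (0.000416). In the same comparison 3 of 6 endothelial genes (median log2 0.24) and 1 of 6 fibroblast genes (median 0.55) were called higher. Called lower were 11 of 12 central neuron and glia genes (median -1.96) and 3 of 9 day-phase clock genes (median -0.14). Of 8 cardiomyocyte genes 2 were called higher and 3 lower. The part of these markers in the results was not tested beyond the fits with the clock and nervous scores. Cited2, a FoxO target, fell by 0.33 on the log2 scale (edgeR adjusted p = 0.00152). With the central neuron and glia score as a covariate, which left 40 calls over all genes, none of the 6 was called. Their log2 values there were -0.99 for Socs3, -0.57 for Slc2a1, 0.60 for Ptpn11, 0.54 for Igfbp7, 0.27 for Deptor and -0.12 for Cited2. Limma did not call Deptor (adjusted p = 0.104) or Igfbp7 (0.0502). In the interaction 2 of 95 pathway genes were called lower and 0 higher, or 2.11% against 10.4% of all genes: Socs3 (-0.70, edgeR adjusted p = 0.0178), which rose under renin on chow but was at 5.95 ± 1.34 CPM (n = 6) in HFD_novirus and 5.91 ± 0.959 (n = 5) in HFD_Renin, and Cited2 (-0.36, edgeR adjusted p = 0.0299). The Cited2 interaction was lost without chow_novirus replicate 1 or 2 or HFD_Renin replicate 1 or 2, and with the long-transcript share as a covariate (edgeR adjusted p = 0.0717). Neither interaction was called with the central neuron and glia score as a covariate, at -0.93 for Socs3 and -0.07 for Cited2, or with limma (adjusted p = 0.123 and 0.0758).

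**Figure D5:**
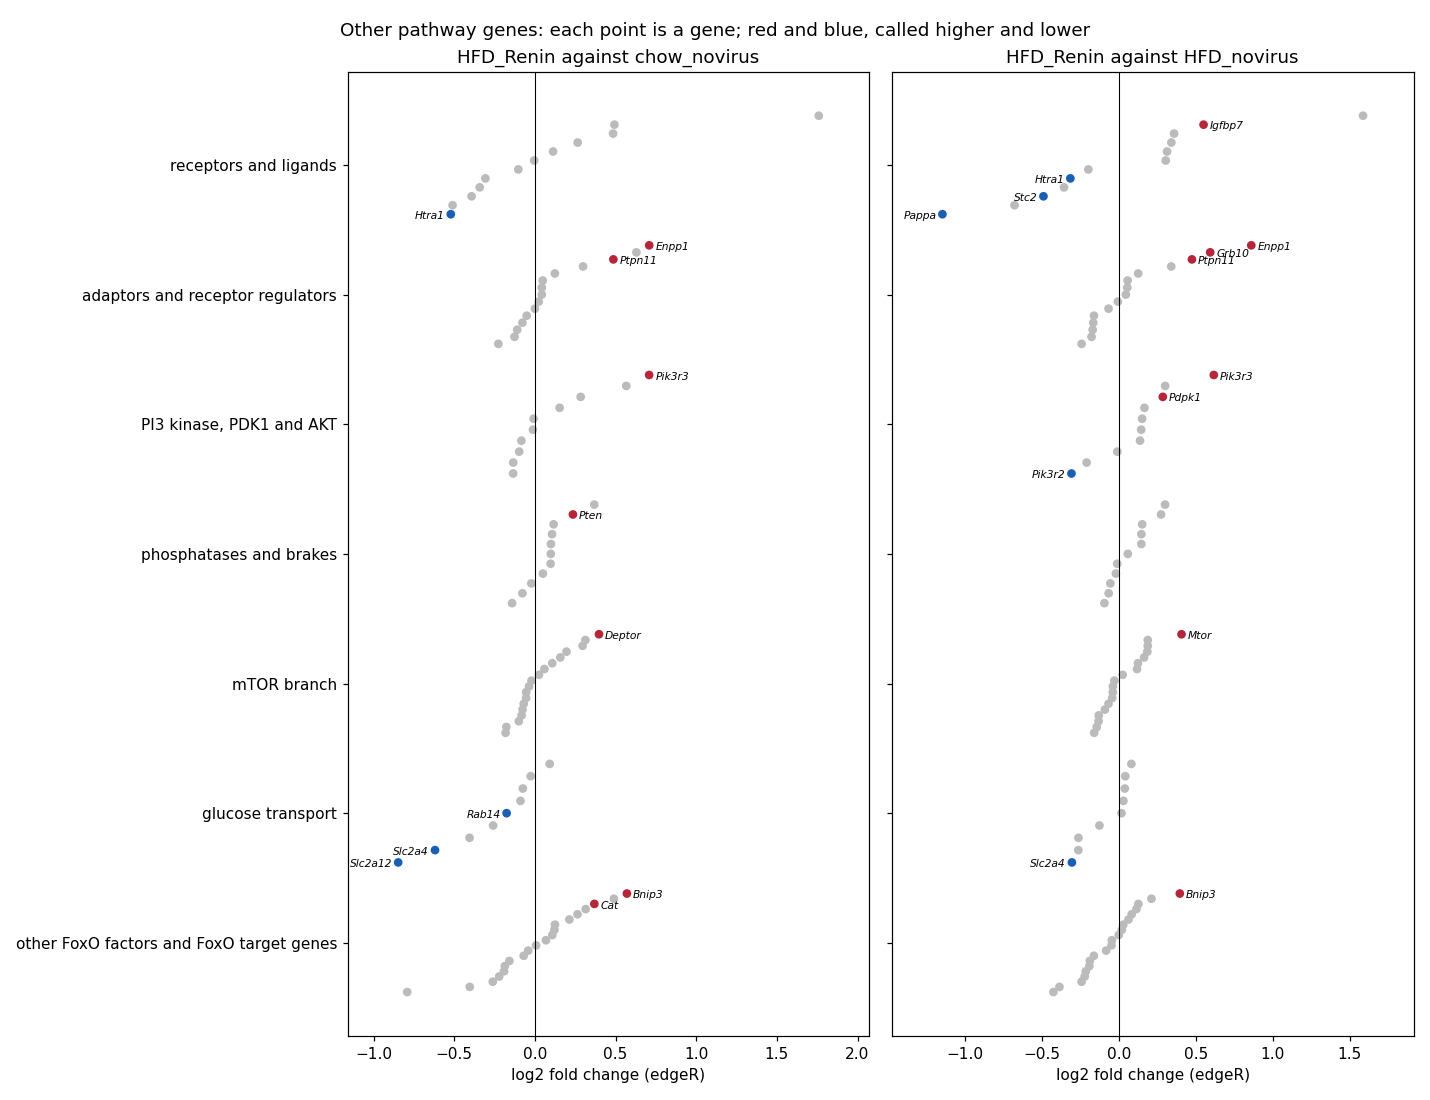
Log2 fold change of the 95 tested pathway genes other than the 10 members, by list, for HFD_Renin against chow_novirus (left) and against HFD_novirus (right). Each point is a gene, sorted by its value within its list, and named points were called (red higher, blue lower). On the left the 3 called glucose transport genes are all lower and Pik3r3, the 1 called gene of the kinase list, is higher.

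The authors' deposited table gives its own fold changes for the HFpEF group, with a reference group that is not stated. In the authors' deposited table the log2 value of Akt2 was -0.26 (adjusted p = 0.000893) and that of Irs2 -0.64 (adjusted p = 0.00841). These were the 2 of 10 members with an adjusted p under 0.05 in the authors' deposited table, where 8.04% of genes with an adjusted p had one. The other 8 members had adjusted p-values from 0.246 (Tbc1d4) to 0.973 (Foxo3) in the authors' deposited table.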

How the data were processed

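For each of 21 heart libraries the authors deposited a transcript table with estimated counts (expected counts, not normalized) and TPM, per the file headers. Per the submitters' processing notes, Salmon 1.10.2 and DESeq2 1.40.2 were used with GRCm38/mm10; index and options are not given in the sources used here. A further deposited table holds a signal per gene and library on an unstated scale, whose columns were matched but not tested, and the authors' own log2 fold changes and adjusted p-values. The labels' protocols name RNeasy extraction with DNase and library preparation at GENEWIZ. Each library is a separate mouse.

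Estimated counts were summed to genes through GENCODE M21 (98.0% of 119215 transcripts matched) and rounded, because the tests had been laid out for counts. Of 23718 genes, filterByExpr kept 15216. Differences were tested with edgeR 4.0.16 in R 4.3.3 (TMM, estimateDisp, robust glmQLFit, quasi-likelihood F test, a term per group, 21 libraries), with Benjamini-Hochberg adjustment over 15216 genes and a threshold of 0.05. The script was tested on simulated data. Standard errors are the absolute log2 fold change over the square root of F. CPM is TMM-normalized. Libraries of a group differed by more than sampling noise in all 46 pairs (chi-square per degree of freedom of at least 3.50). Counting error was largest for Irs1 and Igf1, which had the fewest reads.

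The 10 members and all lists were chosen with earlier results of these data known. All members are named in each comparison, and of the pathway lists the called genes with the smallest adjusted p, up to 6 per comparison. Some genes of the pathway lists are not reported here and are left out of the counts. Alternatives were DESeq2 1.42.0, upper-quartile factors, no filter, the 2 groups alone, a replicate block, thinning to the smallest library, limma 3.58.1 on log2(TPM + 1), the clock and nervous scores as covariates and each library left out; the long-transcript covariate and the coding count of Tbc1d4 were added after the data had been seen.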

Additional observations from a re-analysis of the deposited data

Results flagged for a closer look

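In each group of 4 to 6 hearts, the highest and the lowest heart were compared with the rest for each member, and 3 of 40 groups of values held a heart far from the others by Dixon's 95% criterion; chance alone gives about 1 in 20. Igf1 was at 14.43 CPM in chow_novirus replicate 3, against 7.999 CPM in the next heart and 6.824 in the lowest. The same library had 1228 CPM of atrial genes against 156 to 269 in the other controls, 865 against 482 to 507 CPM of fibroblast genes, and 29.9 against at most 0.776 CPM of adipose genes. Irs1 was at 13.73 CPM in HFD_novirus replicate 1, against 6.509 CPM in the next heart and 2.28 in the lowest. This library was also the highest of its group for Insr, Irs2, Igf1r, Akt2, Foxo1, Foxo3 and Tbc1d4. Tbc1d4 was at 78.69 CPM in chow_Renin replicate 6, against 58.23 CPM in the next heart and 47.39 in the lowest.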

How the results depend on the processing

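The comparisons are named here as both hits (HFD_Renin against chow_novirus), renin on chow, diet alone, renin on HFD (HFD_Renin against HFD_novirus), diet under renin (HFD_Renin against chow_Renin) and the interaction. No called difference of a member changed direction in any alternative. The number of members called for both hits was 1 with no filter on low counts, with thinned libraries, with limma on log2(TPM + 1) and with the central neuron and glia score, and 0 with the clock score. For renin on HFD it was 1 with the central neuron and glia score and 0 with the clock score, limma, the groups of the comparison alone or the long-transcript share. It was 1 for renin on chow with its 2 groups alone, and 1 for diet under renin with limma and with the long-transcript share. Leaving out each library in turn gave 0 to 2 for both hits, 1 to 3 for renin on HFD, 0 to 1 for renin on chow and for the interaction, and 0 for the rest. The cause of these changes was not tested, beyond fewer genes or samples in the fits built that way.

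Counts over all genes moved by more than 1.5 times in some fits. The clock score gave 0 calls for both hits, 8 for renin on HFD and 6 for diet alone. The central neuron and glia score gave 23 for renin on chow, 40 for diet under renin, 21 for the interaction and 58 for diet alone. The groups alone gave 549 for renin on HFD, 803 for both hits and 5 for diet alone, the long-transcript share 95 for renin on HFD and 0 for diet alone, limma 689 for both hits and 87 for diet alone, DESeq2 117 for diet alone, and thinning 6. For both hits, fits without chow_novirus replicate 1, 2 or 4 had 691, 623 or 565 calls, and fits without HFD_Renin replicate 1, 2 or 5 had 664, 793 or 686. For renin on HFD the same 3 HFD_Renin libraries gave 696, 934 and 784. For diet alone the range was 0 to 57. The replicate numbers were not shown to pair the hearts: same-numbered libraries had r from -0.23 to 0.42, over 0.1 in 11 of 28 pairs. However, all 6 pairs of replicate 3 libraries had r from 0.22 to 0.42, and what those libraries share was not tested. These 4 libraries summed to 4.29 to 29.9 CPM over 6 adipose genes, and the others to at most 9.81 CPM. A replicate block left 2, 0, 0, 2, 0 and 0 members called in the order above, and 0 genes for diet alone.

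Differences that were not called either way changed sign in some fits. With the replicate block they were Insr -0.0018 for diet under renin, Igf1 -0.054, Foxo1 -0.030 and Foxo3 0.0094 for diet alone, Foxo3 0.020 for renin on chow, and Foxo3 -0.050 and Tbc1d4 0.039 for the interaction. With DESeq2 it was Foxo3 -0.0042 for the interaction. Upper-quartile factors gave Insr -0.024 for diet under renin, Pik3r1 0.0016 and Foxo3 0.018 for renin on chow and Foxo3 -0.046 for the interaction. Foxo1 for diet alone was -0.0020 with no filter and -0.0041 with the groups alone. Thinning gave Foxo3 0.0011 for renin on HFD and Igf1 -0.0032 for diet alone. Limma gave Irs2 0.015, Foxo1 0.044 and Foxo3 0.13 for renin on HFD, Insr -0.093, Igf1 -0.19, Igf1r -0.029, Pik3r1 -0.0024 and Foxo1 -0.027 for diet under renin, Igf1 -0.023 and Foxo1 -0.082 for diet alone, Insr 0.071, Igf1 0.036, Pik3r1 0.087 and Foxo3 0.099 for renin on chow, and Igf1 -0.17 for the interaction. The clock score gave Foxo1 0.0077 for renin on HFD, Insr -0.035 and Pik3r1 -0.015 for diet under renin, Irs1 -0.42, Igf1r -0.029, Pik3r1 -0.25 and Foxo1 0.049 for both hits, Igf1 -0.019, Akt2 0.032 and Tbc1d4 0.020 for diet alone, and Igf1r -0.050 and Tbc1d4 0.023 for renin on chow. The central neuron and glia score gave Insr -0.32, Irs1 -0.38 and Igf1r -0.28 for diet under renin, Insr 0.048 and Pik3r1 -0.0070 for both hits, Foxo1 -0.039 and Tbc1d4 0.0089 for diet alone, Insr 0.36, Irs1 0.90, Foxo3 0.0022 and Tbc1d4 0.16 for renin on chow, and Insr -0.25, Irs1 -0.099, Igf1r -0.18, Pik3r1 0.19 and Foxo3 -0.0097 for the interaction. The long-transcript share gave Insr -0.0095 for renin on HFD, Foxo3 0.033 for diet under renin, Irs1 0.074 and Foxo3 0.21 for diet alone, Igf1r -0.023 for renin on chow and Foxo3 -0.18 for the interaction. Coding transcripts of Tbc1d4 alone gave 0.42 for renin on HFD, 0.28 for diet under renin and 0.75 for the interaction.

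Leaving out 1 library at a time, Foxo1 ran from -0.026 to 0.042 for diet alone. Foxo3 ran from -0.087 to 0.089 for renin on HFD, -0.075 to 0.094 for diet under renin, -0.079 to 0.079 for both hits, -0.10 to 0.071 for diet alone, -0.076 to 0.069 for renin on chow and -0.080 to 0.10 for the interaction. Igf1 ran from -0.28 to 0.062 for renin on HFD, -0.29 to 0.14 for both hits, -0.22 to 0.31 for diet alone, -0.39 to 0.022 for renin on chow and -0.20 to 0.34 for the interaction. Igf1r ran from -0.016 to 0.10 for diet under renin and -0.022 to 0.11 for renin on chow. Insr ran from -0.038 to 0.11 for diet under renin and -0.088 to 0.047 for both hits. Irs2 ran from -0.31 to 0.077 for renin on HFD. Pik3r1 ran from -0.066 to 0.17 for diet under renin, -0.087 to 0.17 for both hits and -0.14 to 0.11 for renin on chow. Tbc1d4 ran from -0.12 to 0.056 for the interaction. Irs1 and Igf1 had the fewest reads and so the largest counting error; neither was called in any comparison after thinning to the smallest library.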
